A study of Mus musculus with 2 samples.

Results

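The microRNAs described here are 7 genes typical of white blood cells, measured in skeletal muscle: Mir142, Mir146, Mir146b, Mir150, Mir155, Mir223 and Mir342. They were chosen by gene symbol in the GENCODE M21 annotation, and the rule itself uses no measured value, although it was written with earlier results of these data known. All 7 were found among the 2202 annotated microRNA genes of the count tables. The tissue was gastrocnemius, the calf muscle, of female B6CASTF1/J mice, a cross of the C57BL/6J and CAST/EiJ strains, aged 14 days. The labels name 1 group with 2 biological replicates and no treatment, other tissue or other age. The sample name of replicate 1 speaks of 3 females and the name of replicate 2 of 1 female, while the donor identifier is the same for both. Whether RNA was pooled is not stated, so the spread between replicates is the spread between these 2 samples and may in part be technical. With a single group no conditions were compared and no p-value was computed.

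Animal microRNAs are cut from a hairpin precursor, and one arm of about the length of a short primer is loaded into an Argonaute protein. Bases 2 to 8 of the loaded strand, the seed, pair with target mRNAs and lower their stability and translation. Resting muscle holds few leukocytes, chiefly resident macrophages and cells carried in by blood, and microRNAs restricted to these cells are often read as a trace of them in whole tissue. Mir142 is made in nearly all blood cell lineages and Mir223 mainly in neutrophils and monocytes. Mir150 marks mature lymphocytes, in which it represses Myb, and Mir342 is made in lymphoid and myeloid cells. Mir155 rises when B cells, T cells and macrophages are activated. Mir146 is switched on by NF-kB and represses the signalling proteins Traf6 and Irak1, and Mir146b belongs to the same family. Several of these are also made at lower levels outside blood cells, Mir146 in endothelium for example.

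The sequences below show the seeds that set the targets of the genes, and why Mir146 and Mir146b can be told apart by full-length reads. They are from the RefSeq table of build GRCm38.p6, which held hairpins for 6 members. Only the arm usually loaded is shown, with both arms of Mir142, and capitals mark the seed.
miR-142a-5p: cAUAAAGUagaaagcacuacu
miR-142a-3p: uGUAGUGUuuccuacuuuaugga
miR-223-3p: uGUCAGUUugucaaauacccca
miR-342-3p: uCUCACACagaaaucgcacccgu
miR-155-5p: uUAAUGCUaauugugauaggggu
miR-146a-5p: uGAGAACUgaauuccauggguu
miR-146b-5p: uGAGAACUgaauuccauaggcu

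Only miR-146a-5p and miR-146b-5p had a seed in common. No other mature microRNA among the 1738 in the RefSeq table carried the seed of any of the 12 mature strands of the 6 matched members. The miR-146 pair was identical over the first 17 of 22 bases and differed at 2 positions, G18A and U21C, counted from the 5′ end with the miR-146a-5p base first. With the flanking bases of the hairpin the shared stretch was 21 nt. Against the hairpins of 2201 counted genes, on both strands, the longest stretch that any other of the 12 strands shared with another locus was 13 nt, between miR-142a-5p and Mir3964. Mir150 was not part of this search. A read that fits several loci adds to no gene in these counts.

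Levels are given as CPM, a gene's share of the reads assigned to microRNA genes, in which 1% is 10000 CPM. The libraries held 2672454 assigned reads in replicate 1 and 4292012 in replicate 2, so that 1 read was worth 0.374 CPM and 0.233 CPM. Reads without a gene made up 66.6% and 64.6% of the files, chiefly reads aligned to several places. A gene with no read has an upper limit of 3 reads, which is 1.12 CPM in replicate 1 and 0.699 CPM in replicate 2. The intervals below are exact (Clopper-Pearson) 95% binomial intervals and cover counting error only. Each count pools both arms of a hairpin. A read stands for a mature strand of nearly the same length in every gene, so levels were compared without scaling to length. How evenly different sequences enter a library was not measured and lies outside the intervals. Ratios and order between genes are therefore those of reads. Mir206, a microRNA of skeletal muscle, stood at 95105 CPM and 84695 CPM, in keeping with the tissue label. The other muscle genes of the list were far lower, and 3 of the 8 reached 100 CPM in both replicates. Among the lowest, Mir133a-2 averaged 1.42 CPM and Mir1a-1 averaged 8.24 CPM. The Mir1a and Mir133a genes have near-identical copies, so their counts are uncertain. Ranks below are by counted reads, in which genes with such copies can stand too low.

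Together the 7 genes held 0.273% (95% interval 0.267 to 0.279) of assigned reads in replicate 1 and 0.222% (0.218 to 0.227) in replicate 2. That is 7293 and 9530 reads, or 0.247% ± 0.0360 (SD, n = 2). Of the 7, 6 reached 1 CPM in both replicates, beside 16.7% of all annotated microRNA genes. The same 6 also reached 100 CPM in both, beside 7.67% of all genes. The remaining gene, Mir146b, was at the limit of detection. Fewer cells of a type and less microRNA per cell cannot be told apart in RNA from whole tissue.

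**Figure D1:**
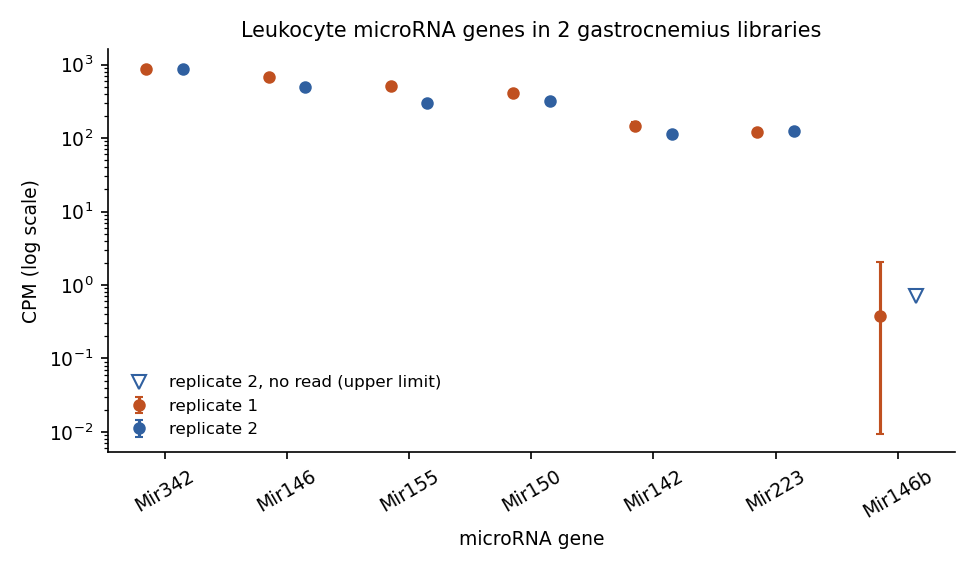
CPM (log scale) of the 7 genes in replicate 1 (left of each pair) and replicate 2, with exact 95% counting intervals, which are smaller than the points for 6 genes. These 6 sit between 113 and 874 CPM, and Mir146b had 1 read in replicate 1 and none in replicate 2, where the open triangle marks the upper limit of 0.699 CPM.

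Mir142, the gene common to most blood lineages, had 394 reads in replicate 1 and 487 in replicate 2. Its level was 147 CPM (133 to 163) and 113 CPM (104 to 124), or 130 ± 24.0 CPM (SD, n = 2), which placed it at rank 161 by mean CPM among 2202 genes. The intervals of the replicates did not overlap, and replicate 1 was higher. The hairpin lies on the plus strand of chromosome 11 (mm10), 87756864 to 87756927, in an intron of the noncoding host gene Mir142hg. A second annotated hairpin, Mir142b, covers the same place on the minus strand, from 87756841 to 87756955.

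The strand of the reads decides the count here. Mir142b had no read on its own strand in either replicate. The 394 and 487 reads of Mir142 stand again, in the same numbers, as reads opposite to Mir142b. In the count column that ignores strand, where reads ambiguous between genes are set apart, both genes had 0 reads in both replicates. None of the 7 genes had a read on the strand opposite to its hairpin in either replicate. No header names the count columns, and their strands were inferred from the values, so this is no separate check of strand.

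**Figure D2:**
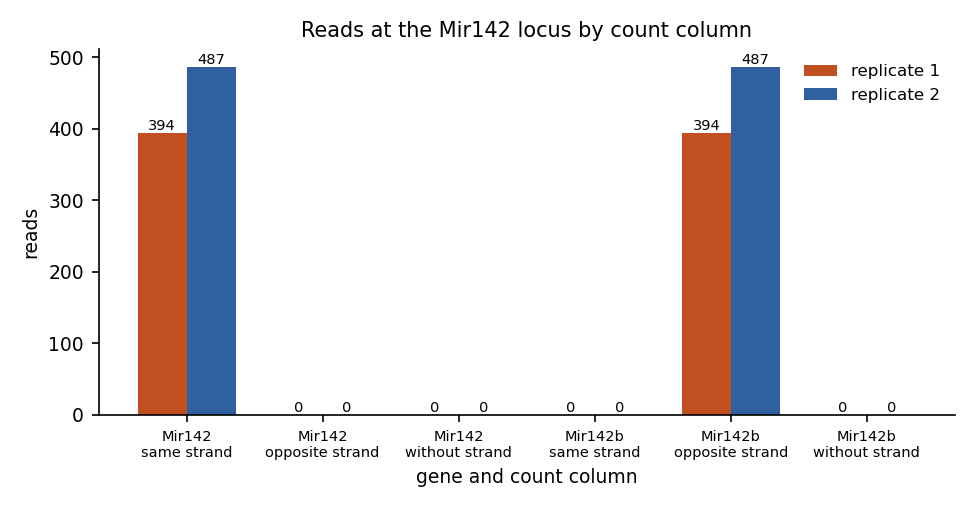
Reads at the Mir142 locus in replicate 1 (left) and replicate 2, for each gene and count column. The 394 and 487 reads of Mir142 stand opposite to Mir142b, and without strand neither gene has a count.

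Mir223, the neutrophil and monocyte gene, had 322 and 534 reads. Its level was 120 CPM (108 to 134) in replicate 1 and 124 CPM (114 to 135) in replicate 2, or 122 ± 2.78 CPM (SD, n = 2), at rank 166. The replicates differed by less than counting error. The hairpin lies on the X chromosome, 96242817 to 96242926 on the plus strand, within an exon of the noncoding gene F630028O10Rik. The nearest protein-coding gene, 4277 bp away, is Vsig4, a complement receptor of tissue macrophages.

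Mir150, the lymphocyte gene, had 1107 and 1361 reads. Its level was 414 CPM (390 to 439) in replicate 1 and 317 CPM (300 to 334) in replicate 2, or 366 ± 68.7 CPM (SD, n = 2), at rank 116. Replicate 1 was higher, and the intervals did not overlap. The hairpin lies between genes on chromosome 7, 45121757 to 45121821 on the plus strand, and no annotated gene overlaps it. Within a library, Mir150 stood 3.44-fold (3.03 to 3.90) above Mir223 in replicate 1 and 2.55-fold (2.30 to 2.82) in replicate 2.

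Mir342 was the most abundant of the 7, at rank 75. It had 2335 reads in replicate 1 and 3750 in replicate 2, and its level was 874 CPM in both, with intervals of 839 to 910 and 846 to 902. Its mean was 874 CPM with an SD of 0.00897 (n = 2), which is far below the counting error of either library and therefore says little about spread between samples. The hairpin lies in an intron of Evl, a regulator of the actin cytoskeleton that is expressed in blood cells, on chromosome 12, 108658620 to 108658718, on the plus strand of Evl itself.

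Mir155, the gene of activated leukocytes, varied most between the replicates among the 6 detected genes. It had 1345 reads in replicate 1 and 1278 in replicate 2 although the second library was deeper. Its level was 503 CPM (477 to 531) and 298 CPM (282 to 315), or 401 ± 145 CPM (SD, n = 2), at rank 112. The hairpin lies within an exon of its host transcript Mir155hg on chromosome 16, 84714140 to 84714204 on the plus strand.

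Mir146, the NF-kB-responsive gene of miR-146a, had 1789 and 2120 reads. Its level was 669 CPM (639 to 701) in replicate 1 and 494 CPM (473 to 515) in replicate 2, or 582 ± 124 CPM (SD, n = 2), at rank 98. It lies between genes on the minus strand of chromosome 11, 43374397 to 43374461, with the nearest protein-coding gene, Pttg1, 45789 bp away.

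Mir146b, whose 5p strand has the same seed, had 1 read in replicate 1 and 0 reads in replicate 2. The 0 has an upper limit of 0.699 CPM at 3 reads, or 0.859 CPM by the exact interval. The single read of replicate 1 stands for 0.374 CPM (0.00947 to 2.08). In replicate 1 the ratio of Mir146 over Mir146b was 1789, with a 95% counting interval of 321 to 70701. In replicate 2, where Mir146b had no read, the lower 95% limit of this ratio was 574. Set against 3 reads of that library for Mir146b, Mir146 was 707-fold higher. A read covering position 18 of the mature strand separates these loci, whereas a read confined to the 17 common bases fits both and would be in neither count. The number of such reads was not measured here. Mir146b lies in an intron of Mfsd13a on chromosome 19, 46342762 to 46342870, on the plus strand of that gene.

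By mean CPM the order was Mir342, Mir146, Mir155, Mir150, Mir142, Mir223 and Mir146b. Neighbours were taken as separate where both replicates of one lay above both of the other. Mir342 was separate from Mir146. Mir150 was separate from Mir142, at 2.80 times its mean, and Mir223 from Mir146b. Mir146 and Mir155 overlapped, as did Mir155 and Mir150, and Mir142 and Mir223. Within the libraries Mir155 stood above Mir150 in replicate 1, at a ratio of 1.22 (1.12 to 1.32), and the ratio was 0.939 (0.869 to 1.01) in replicate 2. The levels thus fell into an upper group of Mir342, Mir146, Mir155 and Mir150, a lower pair of Mir142 and Mir223, and Mir146b near 0.

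**Figure D3:**
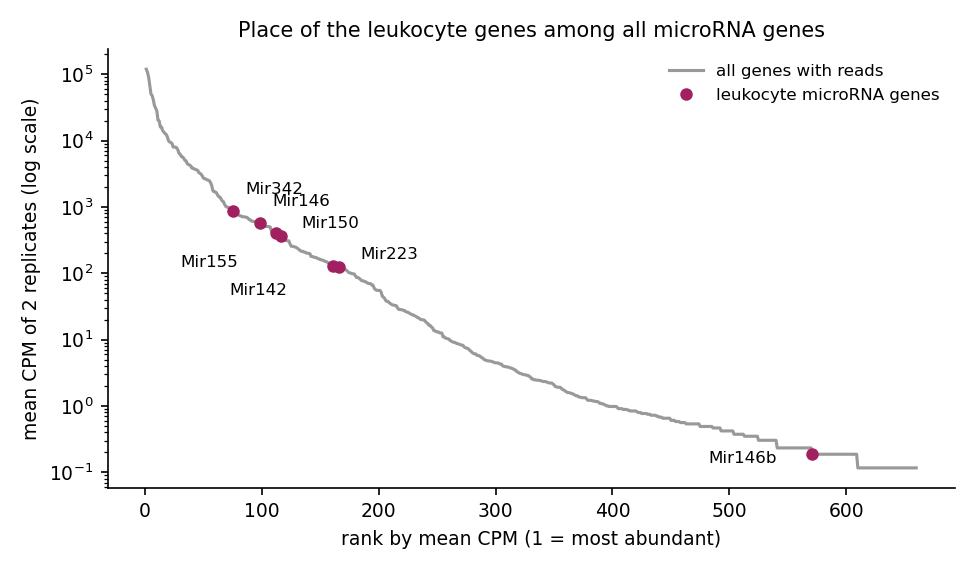
Mean CPM of the 2 replicates (log scale) against rank for all microRNA genes with a read in either replicate (grey line), with the 7 genes marked. Of the 7, 6 lie between ranks 75 and 166, and Mir146b lies at rank 571.

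The genes nearest to each member over the 2 libraries, by distance on the log2(CPM + 1) scale, came from varied sources. Nearest to Mir342 was Mir324, at 857 CPM and 881 CPM. Mir146 was nearest to Mir181b-2, of the Mir181 family that tunes T cell receptor signalling, at 719 CPM and 475 CPM. Mir155 was nearest to Mir150, and Mir150 itself to Mir128-2, at 409 CPM and 330 CPM. Mir142 was nearest to Mir29c (143 CPM and 119 CPM) and Mir223 to Mir107 (121 CPM in both). With 2 libraries this measure describes level and little else. Mir181b-2 and Mir128-2 have near-identical copies elsewhere, so their levels leave out reads that fit several loci. For Mir146b, 38 genes with the same single read were equally near.

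The replicates were then set side by side as the ratio of CPM in replicate 1 over replicate 2, with the interval derived from the exact interval of the split of reads. Each side is 1 library, so the ratios compare these libraries and not conditions. Ratios were read for genes that averaged at least 10 CPM, which were 260 of all genes and 6 of the 7. The interval lay above 1 for 4 of the 6, Mir155, Mir146, Mir150 and Mir142, beside 25.8% of all 260 genes. It lay below 1 for none of the 6, beside 33.1% of all. The median ratio was 1.30 for the 6 genes and 0.976 for all 260.

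Mir155 had the highest ratio of the 6, at 1.69 (1.56 to 1.83). It was the only member at 1.5-fold or more, a mark that 2.31% of the 260 genes reached. Among the 176 genes that averaged at least 100 CPM it took place 4, after Mir122, Mir144 and Mir451a. The ratio was 1.36 (1.27 to 1.44) for Mir146, 1.31 (1.21 to 1.42) for Mir150 and 1.30 (1.13 to 1.49) for Mir142, at places 10, 15 and 16. Mir342 had a ratio of 1.00 (0.949 to 1.05) and Mir223 of 0.968 (0.841 to 1.11), and both intervals include 1. The inducible genes Mir155 and Mir146, the lymphocyte gene Mir150 and the common blood gene Mir142 were thus higher in replicate 1. No difference beyond counting error was seen in the myeloid gene Mir223 or in Mir342. For Mir342 this holds with the total over microRNA genes as denominator: with every read in the file as denominator its ratio was 0.944 (0.896 to 0.994). Summed over the 7 genes the ratio was 1.23 (1.19 to 1.27).

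**Figure D4:**
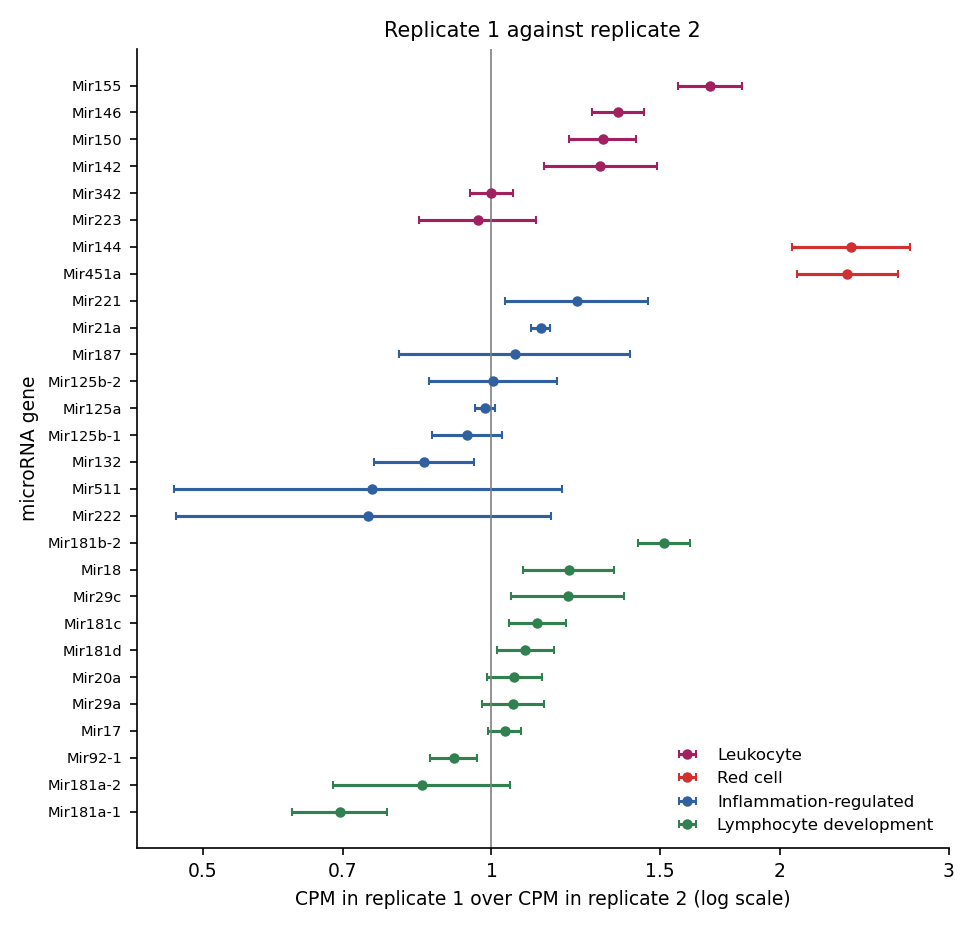
Ratio of CPM in replicate 1 over replicate 2 (log scale) with 95% counting intervals, for genes that averaged at least 10 CPM in 4 lists. Of the leukocyte genes, 4 lie to the right of 1 with their intervals, Mir342 and Mir223 lie at 1, and both red cell genes lie farther right, near 2.4.

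The makeup of the reads of the 7 genes differed accordingly. Mir342 held 32.0% (30.9 to 33.1) of the reads of the 7 genes in replicate 1 and 39.3% (38.4 to 40.3) in replicate 2. Mir155 held 18.4% (17.6 to 19.4) and 13.4% (12.7 to 14.1). Mir146 held 24.5% (23.5 to 25.5) and 22.2% (21.4 to 23.1), and Mir150 15.2% (14.4 to 16.0) and 14.3% (13.6 to 15.0). Mir142 held 5.40% (4.89 to 5.95) and 5.11% (4.68 to 5.57), and Mir223 4.42% (3.96 to 4.91) and 5.60% (5.15 to 6.08). The intervals of Mir342, Mir155, Mir146 and Mir223 did not overlap between the libraries, and those of Mir150 and Mir142 did. The ratio of Mir223 over Mir142 was 0.817 (0.703 to 0.949) in replicate 1 and 1.10 (0.968 to 1.24) in replicate 2. The intervals did not overlap.

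**Figure D5:**
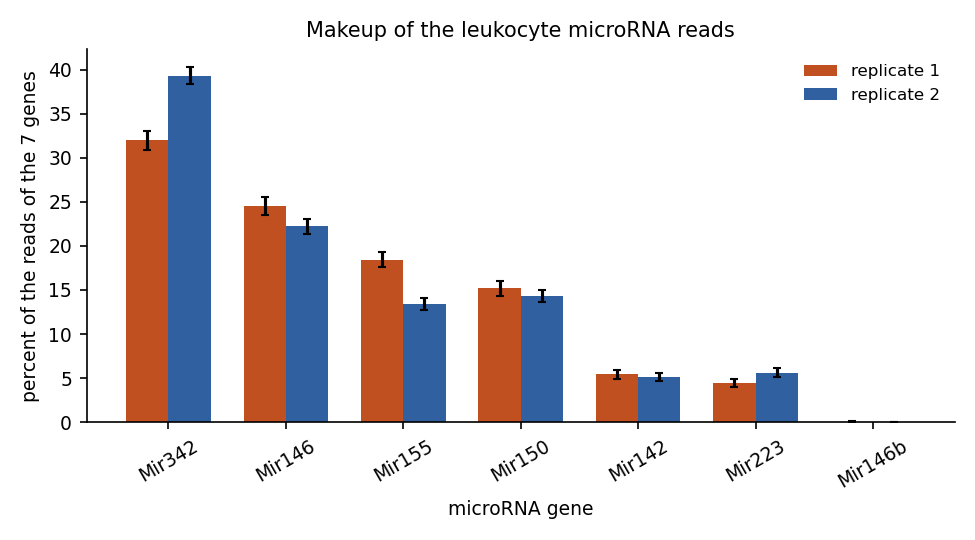
Percent of the reads of the 7 genes held by each gene in replicate 1 (left) and replicate 2, with exact 95% counting intervals. Mir342 has the largest share in both, 32.0% and 39.3%, and Mir155 has 18.4% and 13.4%.

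Markers of other cell types moved between the libraries too, and their part in these ratios was not tested. The red cell genes Mir451a and Mir144 summed to 437 CPM in replicate 1 and 185 CPM in replicate 2, a ratio of 2.36 (2.15 to 2.59), and both members were higher in replicate 1. The sum of the 7 leukocyte genes was 6.24 times (5.87 to 6.65) the red cell sum in replicate 1 and 12.0 times (11.1 to 12.9) in replicate 2. The hepatocyte gene Mir122 had 229 CPM and 14.2 CPM. The 8 skeletal muscle genes held 9.57% and 8.53% of reads, nearly all from Mir206, and none was at 0. Of the 5 muscle genes that averaged at least 10 CPM, 2 were higher in replicate 1 and 2 were lower, and their median ratio of 0.821 ran opposite to the summed ratio of 1.12. The endothelial genes held 11.9% in both, nearly all from Mir126a. The 5 fibroblast and smooth muscle genes held 2.43% and 2.54%, with Mir199a-1 at 0. Mir199a-1 and Mir199a-2 are near-identical copies, so this 0 and this share can leave out reads that fit several loci. The 6 neuronal genes held 0.00921% and 0.0184%, with the 3 Mir124a genes at 0, and the 7 epithelial genes 0.00782% and 0.00932%, where Mir200a and Mir141 had no read in replicate 1. The Mir124a genes are near-identical copies, and reads that fit several loci are left out. Their 0 therefore does not show absence, and the neuronal share can stand too low.

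Further lists held microRNAs that act in immune cells but are made in many tissues. The list of 14 genes regulated in inflammation took up 0.934% and 0.891% of reads in replicates 1 and 2, with 10 genes at 1 CPM or more in both and 5 at 100 CPM or more, against 6 of the 7 leukocyte genes. Most of that share came from Mir21a and Mir125a. Mir21a stood at 4778 CPM and 4246 CPM and is also abundant in fibroblasts. Mir125a, a regulator of haematopoietic stem cells, followed at 3818 CPM and 3878 CPM. Mir125b-1 stood at 331 CPM and 351 CPM, and Mir132, induced by CREB, at 159 CPM and 187 CPM. Mir125b-1 and Mir125b-2, both at 100 CPM or more, are near-identical copies. Their counts rest on reads that fit 1 locus and are uncertain. The Mir9 genes of this list are such copies too. The numbers of genes above reaching a threshold can thus be too low beside those of the leukocyte genes. Mir511, hosted by the macrophage mannose receptor gene Mrc1 and named after its values were seen, had 29 and 62 reads, or 10.9 CPM and 14.4 CPM. Of the 9 that averaged at least 10 CPM, Mir21a and Mir221 were higher in replicate 1, Mir132 was lower, and the other 6 intervals include 1. The median ratio of the 9 was 0.985.

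The 16 genes of lymphocyte development and growth held 0.560% and 0.524% of reads, and 14 of them reached 1 CPM in both replicates. Mir17, of a cluster that promotes B cell survival, led with 1536 CPM and 1488 CPM. Mir92-1 of the same cluster had 697 CPM and 763 CPM, and Mir20a 565 CPM and 535 CPM. Of the 11 that averaged at least 10 CPM, the interval lay above 1 for 5 and below 1 for 2, with a median ratio of 1.06. The highest ratio was that of Mir181b-2, at 1.51 (1.42 to 1.61). Its family member Mir181a-1, named after its values were seen, had the lowest, at 0.695 (0.620 to 0.778). Several genes of this list have near-identical copies elsewhere, so their counts rest on reads that fit 1 locus and are uncertain.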

How the data were processed

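Small RNA from gastrocnemius was sequenced in 2 libraries, with RNA shorter than 30 nt selected, per the labels. The deposited tables hold raw read counts for each microRNA gene, made on mm10 with GENCODE M21, per the text deposited with them. No aligner or counter is given in the sources used here. Each file has 3 count columns that no header names. They were taken as without strand, same strand and opposite strand, inferred from the values. The same-strand column was used. The 4 lines that name no gene stayed out of all totals. All 2202 identifiers matched GENCODE M21, which gave symbols and positions.

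CPM were computed from each library's sum of microRNA gene counts. With 1 group no test was fitted: SDs are over 2 replicates, and intervals are exact binomial. The chi-square of the counts was 147 per degree of freedom over 255 genes, so the libraries differ beyond sampling noise. The interval step was run on simulated counts that held sampling noise only. Such counts cannot test how it behaves with the larger spread seen here. Members and lists were chosen with earlier results of these data known. The text names all members, the 4 highest genes at 100 CPM or more of each of the 2 immune lists, the nearest gene to each member and genes with the same seed. Further genes of the marker lists are named too. Mir511, Mir181a-1, Mir221, Mir133a-2 and Mir1a-1 were picked after their values were seen, and the Mir9 genes for their copies. Mature sequences are from RefSeq (GRCm38.p6). Alternatives were the unstranded column, other denominators, TMM (edgeR 4.0.16) and DESeq2 1.42.0 size factors, other thresholds and each replicate alone. Python 3.11.15 with scipy 1.17.1 and R 4.3.3 were used.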

Additional observations from a re-analysis of the deposited data

Results flagged for a closer look

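The count column for the opposite strand, which enters no level above, held reads for Mir142b, a hairpin annotated on the minus strand over Mir142. There were 394 in replicate 1 and 487 in replicate 2, above the 3-read limit of a count of 0 in both. They equal the same-strand reads of Mir142 in each library, and Mir142b had 0 reads on its own strand.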

How the results depend on the processing

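The share of reads held by the 7 genes, 0.247%, was 0.316% with the unstranded column, 0.0848% with every read as denominator, 0.642% without the 10 most abundant genes in the denominator and 0.160% without Mir342. It was 0.248% with TMM or DESeq2 size factors, and 0.222% and 0.273% with a single replicate. The count of members at 1 CPM in both was 6, or 5 with the unstranded column, where Mir142 has 0 reads. The count at 100 CPM was 6, with 5 in the unstranded column, and 4 with every read as denominator or at a threshold of 200 CPM. The 4 members higher in replicate 1 stayed 4 in each alternative run except the unstranded column, with 3. Over these alternatives the ratio ranged from 1.60 to 1.76 for Mir155, from 1.28 to 1.41 for Mir146, from 1.23 to 1.36 for Mir150 and from 1.23 to 1.36 for Mir142. That of Mir342 ranged from 0.944 to 1.04 and that of Mir223 from 0.914 to 1.01, so neither has a direction that holds across scalings. With every read as denominator the interval of Mir342, 0.896 to 0.994, excluded 1. A ratio between replicates has no value with either replicate left out. No paired analysis was possible because the labels give 1 group. Counts of Mir146b are too low for any ratio between libraries.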
